A study of Trichoderma atroviride IMI 206040 with 36 samples.

Results

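Mycelium of the Δblr-1 mutant of Trichoderma atroviride was compared with mycelium of the WT strain when neither had been exposed to light. The comparison used 6 of the 36 samples of the series, namely the 3 dark replicates of Δblr-1 and the 3 dark replicates of WT, chosen by their labels. All 11863 transcripts of the deposited table entered, and 9466 of them held enough counts to be tested. T. atroviride is a filamentous soil fungus used in biological control of plant pathogens, and the strain studied is IMI 206040.

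BLR-1 and BLR-2 are the Trichoderma counterparts of the White Collar proteins of Neurospora crassa. White Collar-1 binds a flavin in its LOV domain and thereby senses blue light, and it joins White Collar-2 in a complex that binds promoters of light-induced genes. In Neurospora the complex is also active in darkness, where it drives the clock gene frq. In Trichoderma, light perceived through the BLR proteins triggers the formation of conidia, the asexual spores, and ENVOY is the counterpart of VIVID, a small LOV protein that dampens the complex in Neurospora.

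The study measured poly(A) RNA of the WT strain and of photoreceptor mutants by RNA-seq. All strains had grown for 36 h on potato dextrose agar covered with cellophane. Each strain was sampled either without any exposure or 30 min after a blue light pulse of 200 μmol per m2, with 3 replicates of each. The Δblr-1 deletion strain had been described in an earlier study, and the sources used here do not say how many independent transformants it stands for.

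The dark Δblr-1 libraries held 5107381, 15299635 and 5454568 estimated counts, against 5747357, 5604283 and 4278614 in the dark WT libraries. The labels name the replicates as biological, without saying whether each came from a separate inoculum. WT dark replicate 2 stood apart from the other WT dark libraries: the chi-square per degree of freedom over genes was 16.2 and 12.04 for the pairs that hold it and 7.76 for replicates 1 and 3, against 4.71 to 6.18 for the pairs of Δblr-1. The Id of blr-1 was not found in the sources used here, so the deleted gene was not checked by name. The labels of the light libraries were checked by the light response instead, through env-1, a gene that the complex induces. It had 1.30, 1.86 and 2.29 CPM in Δblr-1 after light, against 109, 107 and 106 CPM in WT after light. This check does not cover the labels of the dark libraries. The study itself reported env-1 as dependent on BLR-1 from the same libraries. CPM values are counts scaled to a common library total, with TMM scaling factors.

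A modest set of genes differed between the strains in darkness. Of 9466 genes tested, 178 (1.88%) were called, which means an adjusted p of at most 0.05 and a log2 fold change of at least 1 in size. Of these, 41 genes (0.433%) were higher in Δblr-1 and 137 genes (1.45%) were lower. The median log2 fold change of all genes was 0.0033. An unadjusted p under 0.05 was found for 1031 genes that were higher and 1176 that were lower. By the adjusted p alone 719 genes (7.6%) passed, 284 higher (3%) and 435 lower (4.6%). The 3 Δblr-1 libraries lay all on one side of the 3 WT libraries for 163 of the called genes, as they did for 25.2% of all genes tested. The number of calls depended on single libraries. It was 89, 295 and 94 without WT replicate 1, 2 and 3, and 101, 91 and 145 without Δblr-1 replicate 1, 2 and 3. In all 6 of these fits 17 of the higher and 41 of the lower genes were called. Tested against a 2-fold change rather than against no change, 2 genes passed, Id. 299597 and Id. 288145.

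**Figure D1:**
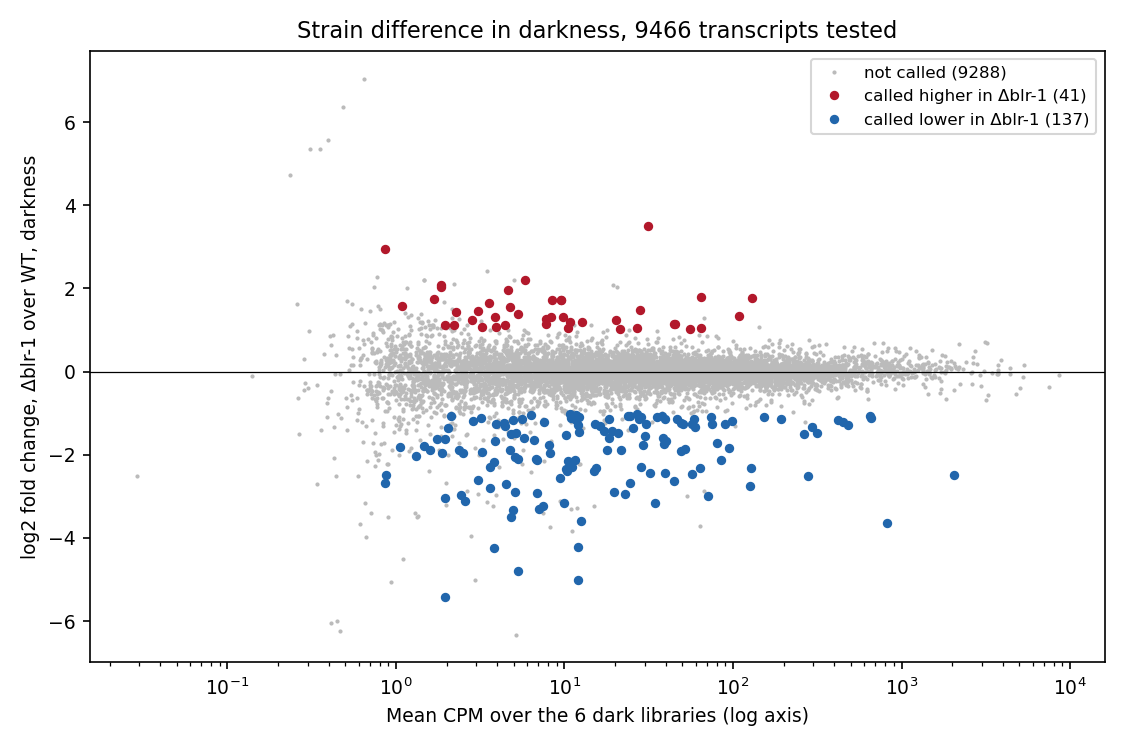
Each point is one of the 9466 genes tested, with its mean CPM over the 6 dark libraries on a log axis and the log2 fold change of Δblr-1 over WT in darkness. Red points are the 41 genes called higher and blue points the 137 genes called lower, which reach higher levels and larger changes than the red ones.

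Most called genes carry no product name in the sources used here. Names other than hypothetical protein were found for 13 of the 178, and genes are therefore given by their Id.

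The clearest gene was Id. 299597, which has no product name in the sources used here. It had 60.6, 55.9 and 56.6 CPM in Δblr-1, against 3.99, 6.68 and 4.33 CPM in WT. All 3 mutant libraries were thus far above all 3 WT libraries, and the difference was 11.4-fold (log2 fold change 3.51 ± 0.14 SE, adjusted p = 2.0e-10). Its level in the other mutants was close to that in Δblr-1, at 61.2, 63.4 and 58.0 CPM in Δblr-2 and 58.5, 53.8 and 53.8 CPM in Δenv-1 in darkness. After light Id. 299597 had 64.5, 64.3 and 62.9 CPM in Δblr-1, against 4.46, 6.29 and 5.76 CPM in WT. WT was therefore the strain that stood apart for this gene, with or without light.

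Id. 229937 showed a different arrangement among the strains. It had 163, 147 and 159 CPM in Δblr-1, against 61.6, 59.8 and 64.3 CPM in WT, a 2.52-fold difference (log2 fold change 1.33 ± 0.09 SE, adjusted p = 2.3e-07). Here the other mutants lay with WT, at 55.2, 57.0 and 62.8 CPM in Δblr-2 and 57.4, 61.5 and 61.6 CPM in Δenv-1. The light libraries, which the dark contrast does not use, gave log2 fold changes of Δblr-1 of 1.26 over Δenv-1 (adjusted p = 2.7e-08), 1.16 over Δblr-2 (adjusted p = 5.1e-10) and 1.24 over WT (adjusted p = 3.2e-08).

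Id. 299986 was higher in Δblr-1 and lower in Δblr-2. It had 111, 88.0 and 99.9 CPM in Δblr-1, against 30.2, 25.5 and 30.8 CPM in WT (log2 fold change 1.78 ± 0.18 SE, adjusted p = 1.0e-04). In darkness it had 14.8, 15.2 and 15.7 CPM in Δblr-2 and 83.3, 87.9 and 88.2 CPM in Δenv-1. After light, Δblr-1 was above Δblr-2 by 1.40 on the log2 scale (adjusted p = 1.8e-06) and differed from Δenv-1 by 0.0038 (adjusted p = 0.9996).

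A predicted Na/K ATPase alpha subunit (Id. 131293), a cation pump of the plasma membrane, was higher in Δblr-1 as well. It had 13.8, 14.5 and 16.1 CPM in Δblr-1, against 4.51, 5.28 and 3.42 CPM in WT (log2 fold change 1.73 ± 0.21 SE, adjusted p = 4.6e-04). Its dark level was 27.2, 27.4 and 26.3 CPM in Δblr-2 and 7.03, 5.10 and 6.50 CPM in Δenv-1. Both blr mutants thus lay above WT in every library, with Δblr-2 above Δblr-1. The gene cyp51a (Id. 48253), for a sterol demethylase of ergosterol synthesis, had 6.24, 8.10 and 7.76 CPM in Δblr-1, against 1.91, 2.29 and 1.37 CPM in WT (log2 fold change 1.97 ± 0.41 SE, adjusted p = 0.0091).

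**Figure D2:**
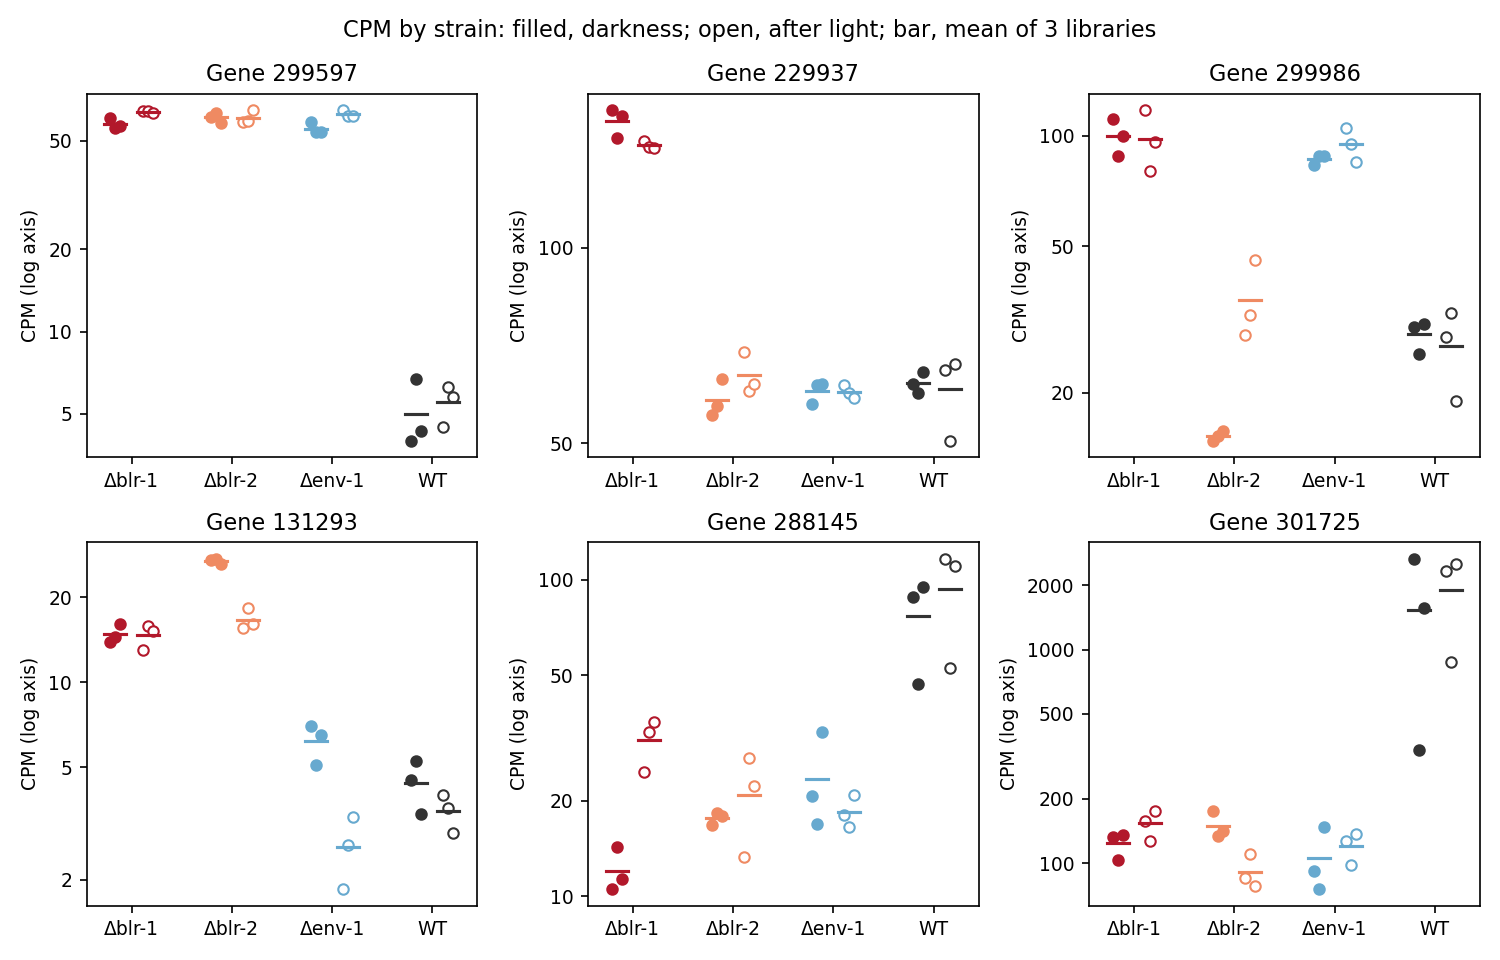
CPM on a log axis for 6 genes in Δblr-1, Δblr-2, Δenv-1 and WT, with filled points for the 3 dark libraries, open points for the 3 light libraries and a bar at their mean. WT stands apart from the mutants for Id. 299597 and Id. 301725, and Δblr-1 stands apart for Id. 229937, at 142 to 163 CPM in its 6 libraries.

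A further 6 genes complete the 10 with the largest rise. Id. 38831, Id. 81927, Id. 90644 and Id. 45260 were low in both strains, at 1.41 to 3.90 CPM in Δblr-1 and 0 to 1.23 CPM in WT, with log2 fold changes of 1.75 to 2.94. Id. 301255 was abundant, with 193, 172 and 239 CPM in Δblr-1, against 30.5, 103 and 40.8 CPM in WT (log2 fold change 1.78 ± 0.44 SE, adjusted p = 0.024). WT replicate 2 was the highest WT library for this gene, and without WT replicate 1 its adjusted p was 0.11. Id. 255118, a gene listed as light-induced, had 5.07, 11.8 and 12.2 CPM in Δblr-1, against 1.04, 4.22 and 0.912 CPM in WT. Its log2 fold change was 2.21 ± 0.58 (SE) with an adjusted p of 0.030, which was 0.15 without WT replicate 1, and 15 of its 24 library values were not whole numbers, since the counting shared reads with other transcripts. Among the abundant genes called higher, Id. 147452 had 76.6, 80.2 and 67.4 CPM in Δblr-1, against 42.2, 41.3 and 26.2 CPM in WT (log2 fold change 1.02 ± 0.16 SE, adjusted p = 0.0027).

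The genes called lower were more numerous and changed more. Together the 137 genes summed to 4449, 4203 and 4707 CPM in Δblr-1, against 22150, 6963 and 16475 CPM in WT. Their median log2 ratio to the mean of the WT dark libraries was -1.50, -1.51 and -1.30 in the Δblr-1 libraries, and 0.46, -0.76 and 0.38 in the WT libraries. WT replicate 2 was the lowest WT library for 124 of the 137 genes. The Δblr-1 libraries were thus alike, whereas WT replicate 2 lay between them and the other WT libraries. The same number stood apart after light, where the median was 0.56, -0.38 and 0.70 in WT.

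Id. 301725 was among the most abundant genes that fell. It had 132, 103 and 136 CPM in Δblr-1, against 2667, 338 and 1565 CPM in WT (log2 fold change -3.64 ± 0.54 SE, adjusted p = 0.0020). The groups did not overlap, although WT replicate 2 was far below the other WT libraries. Levels were likewise low in the other mutants, at 174, 134 and 142 CPM in Δblr-2 and 91.7, 75.5 and 148 CPM in Δenv-1 in darkness. After light the values were 158, 127 and 175 CPM in Δblr-1, against 2329, 872 and 2506 CPM in WT.

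Id. 288145, listed by the study as light-responsive in Δblr-1, was the lower gene that passed the test against a 2-fold change. It had 10.5, 14.3 and 11.3 CPM in Δblr-1, against 88.5, 46.8 and 95.0 CPM in WT (log2 fold change -2.62 ± 0.31 SE, adjusted p = 3.7e-04). Its dark level was 16.8, 18.3 and 17.96 CPM in Δblr-2 and 20.7, 16.9 and 32.95 CPM in Δenv-1. After light Δblr-1 had 24.8, 33.1 and 35.4 CPM, against 117, 52.7 and 110 CPM in WT.

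Nitrate reductase (Id. 291159), which carries out the first step of nitrate assimilation, was low in Δblr-1. It had 0.195, 0.194 and 0.882 CPM in Δblr-1, against 16.1, 1.76 and 12.8 CPM in WT (log2 fold change -4.79 ± 1.33 SE, adjusted p = 0.039). Its neighbour Id. 256104 followed the same libraries, with 0.390, 0.454 and 1.59 CPM in Δblr-1, against 40.6, 1.76 and 27.1 CPM in WT (log2 fold change -5.01 ± 1.35 SE, adjusted p = 0.034). Both were lowest in WT replicate 2 among the WT libraries, and each was called in 1 of the 6 fits that left out a dark library, with adjusted p up to 0.16 and 0.14. In Δenv-1 darkness nitrate reductase varied from 0.32 to 27.1 CPM between libraries, and in Δblr-2 darkness it had 0.40, 0.80 and 0.95 CPM.

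The other genes with the largest falls were Id. 281372, Id. 90157, Id. 267549, Id. 316835, Id. 319981, Id. 316834 and Id. 159587. Their log2 fold changes ran from -4.24 to -3.24, and WT replicate 2 was the lowest WT library for each of them. Id. 281372 and Id. 90157 were each called in 1 of the 6 fits that left out a dark library, with adjusted p up to 0.12 and 0.17. Id. 159587 was called in 5 of these fits and the other genes of this group in all 6. Id. 316835 had 0.974, 0.519 and 1.06 CPM in Δblr-1, against 11.6, 3.69 and 10.9 CPM in WT. Among the most abundant genes that fell were Id. 298116, with 395, 432 and 415 CPM in Δblr-1, against 1285, 715 and 697 CPM in WT, and Id. 137289, with 235, 294 and 247 CPM in Δblr-1, against 671, 537 and 544 CPM in WT. Their log2 fold changes were -1.12 ± 0.19 and -1.17 ± 0.18 (SE). In these genes WT replicate 2 did not lie apart from WT replicate 3. Id. 302419 and Id. 152285 fell by 1.06 and 1.28 on the log2 scale.

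**Figure D3:**
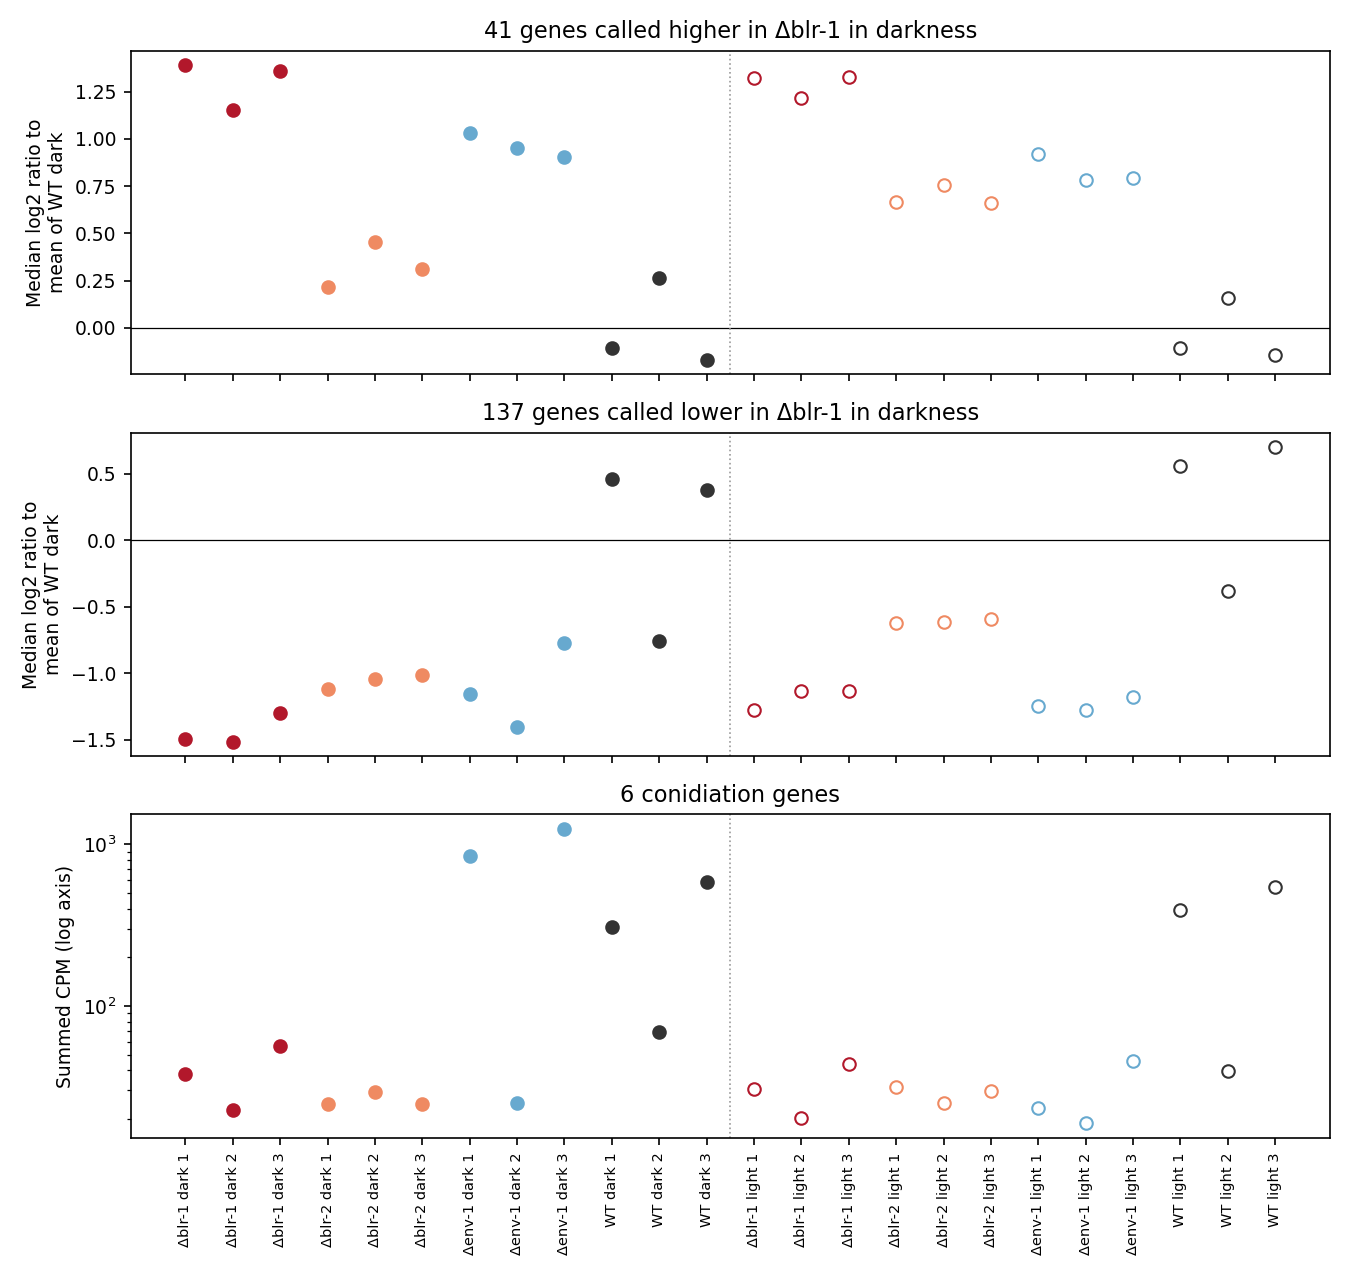
For each of 24 libraries (filled, darkness; open, after light), the upper panels give the median log2 ratio to the mean of the WT dark libraries of the 41 genes called higher and the 137 genes called lower, and the lowest panel gives the summed CPM of 6 conidiation genes on a log axis. WT replicate 2 lies below WT replicates 1 and 3 in the lower panels in darkness and after light.

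Conidiation genes were examined because conidia and conidiophores are the other cell type that a mycelial sample can hold. The list held 3 hydrophobins, which coat the surface of aerial hyphae and spores, alb-1 and a second alb1-like polyketide synthase, which make spore pigment in other fungi, and cmp-1. Their summed level was 37.6, 22.6 and 56.6 CPM in Δblr-1, against 310, 69.1 and 586 CPM in WT. The 3 Δblr-1 libraries were below all WT libraries, and WT replicate 2 was again nearest to them. The gene cmp-1 (Id. 323283) had 11.7, 6.09 and 11.47 CPM in Δblr-1, against 148, 17.1 and 191 CPM in WT (log2 fold change -3.72 ± 1.17 SE, adjusted p = 0.063). The hydrophobin Id. 258295 had 13.1, 9.98 and 27.7 CPM in Δblr-1, against 79.1, 32.9 and 244 CPM in WT (log2 fold change -2.88 ± 1.11 SE, adjusted p = 0.13). The gene alb-1 (Id. 217154) had 2.73, 1.81 and 4.76 CPM in Δblr-1, against 29.3, 6.33 and 44.9 CPM in WT (log2 fold change -3.24 ± 1.16 SE, adjusted p = 0.10).

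None of the 6 conidiation genes was called in edgeR's quasi-likelihood test over 17 libraries, although all 6 had an unadjusted p under 0.05 and their median log2 fold change was -3.17. Id. 154816, Id. 146062 and Id. 299543 had log2 fold changes of -3.11, -3.27 and -2.22. The call changed with the libraries fitted and with the method. With the replicate number as a block all 6 were called lower (adjusted p 0.0087 to 0.041), and with the 6 dark libraries alone 4 were. Over the 12 libraries of Δblr-1 and WT, which hold no Δenv-1 library, none was called. By the likelihood ratio test 4 were called lower, by DESeq2 cmp-1 and alb-1 were, and by voom none. Over all genes, the block called more lower than the main fit, and the 6 dark libraries alone kept the numbers called within 1.5 times. The Δenv-1 dark libraries in the main fit differed widely in these genes, with summed levels of 845 and 24.9 CPM. Whether this bears on the calls was not tested. In bulk RNA, fewer conidiating cells and less RNA per cell cannot be told apart, and the part of conidiation in the other differences between the strains was not tested.

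The genes that the study lists as repressed by light in Δenv-1 alone had the same WT library lowest as the conidiation genes. The lists are not separate, since the paper places cmp-1, alb-1 and a hydrophobin of the conidiation list among genes repressed only in Δenv-1. Their likeness is therefore partly built in. Of 51 genes 46 were tested, and their median log2 fold change was -2.26. In Δblr-1 they summed to 121, 90.6 and 146 CPM, against 701, 182 and 1162 CPM in WT. They were called lower in 3 cases, which were nitrate reductase, Id. 90157 and Id. 290350, against 1.45% of all genes. Of the 46 genes 42 had a negative log2 fold change, against 4663 of all 9466 genes. With the replicate block 21 were called lower, and without WT replicate 2 12 were. Over all genes, more were called lower in both of these fits than in the main fit. Over the 17 libraries without a block, the likelihood ratio test called 18 of the list lower, DESeq2 12 and voom 0. Leaving out WT replicate 1 or 3, or Δblr-1 replicate 1 or 2, left no gene of the list called by edgeR's quasi-likelihood test. Leaving out Δblr-1 replicate 3 left 1. With all libraries 26 had an unadjusted p under 0.05 and were lower, against 1176 of all 9466 genes. The list rests on Δenv-1 libraries of the same series. That its genes are repressed in Δenv-1 alone also rests on other strains, WT and Δblr-1 among them.

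None of the 7 photoreceptor, photolyase and clock genes was called in darkness. That does not show equal levels, since the estimates of those with few counts were imprecise. With the 6 dark libraries alone 5 were tested, and none was called. In the main fit 1 of the 7 had an unadjusted p under 0.05. That gene was tmk-3 (Id. 301235), a stress-activated MAP kinase, which had 174, 192 and 186 CPM in Δblr-1, against 212, 208 and 212 CPM in WT. The groups did not overlap, and the difference was small (log2 fold change -0.20 ± 0.05 SE, adjusted p = 0.031). The clock gene frq (Id. 131340) had 61.2, 54.4 and 53.1 CPM in Δblr-1, against 64.9, 63.1 and 55.4 CPM in WT (log2 fold change -0.13 ± 0.08 SE, adjusted p = 0.33).

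The blue light photoreceptor gene env-1 (Id. 150699) had 1.36, 1.69 and 1.06 CPM in Δblr-1, against 1.73, 1.76 and 2.05 CPM in WT. The libraries did not overlap, but the difference did not pass (log2 fold change -0.32 ± 0.23 SE, adjusted p = 0.66). The CPD photolyase gene phr-1 (Id. 302457), which repairs UV damage, had 376, 389 and 355 CPM in Δblr-1, against 378, 375 and 351 CPM in WT, with some reads shared with other transcripts. The log2 fold changes of cry-1 (Id. 86846), for a photolyase of the cryptochrome family, blu-1 (Id. 300570), a gene induced by blue light, and cry-DASH (Id. 285589) were 0.18 ± 0.12, 0.11 ± 0.36 and -0.68 ± 0.64 (SE). None of the 3 passed, and cry-DASH was under 1.1 CPM in every dark library of both strains.

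The genes that the study lists as dependent on BLR-1 for their light response showed no common shift of their medians in darkness. Of the 94 genes induced by light 93 were tested, with a median log2 fold change of -0.0026. Among them 2 were called higher and 2 lower, against 0.433% and 1.45% of all genes, and by the adjusted p alone 4 were higher and 8 lower, against 3% and 4.6%. Of the 35 genes repressed by light 3 were called higher and 1 lower, against 0.433% and 1.45% of all genes, with a median of -0.0051. By the adjusted p alone 5 of the 35 were higher and 1 lower, against 3% and 4.6% of all genes. The filter also used the light libraries, so genes low in darkness could enter these medians. With the 6 dark libraries alone 72 of the induced list were tested, with 2 called higher and 0 lower. Of the repressed list 30 were tested there, with 2 called higher and 0 lower. Over all genes, that fit kept the numbers called higher and lower within 1.5 times those of the main fit. Both lists were chosen by the study on libraries that include the WT dark libraries.

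Within the induced list, some transcripts had a lower basal level in Δblr-1. Geranylgeranyl diphosphate synthase (Id. 160158), which makes a precursor of carotenoids, had 193, 193 and 180 CPM in Δblr-1, against 254, 240 and 273 CPM in WT (log2 fold change -0.44 ± 0.08 SE, adjusted p = 0.0048). A cell division control protein (Id. 155669) had 35.1, 29.7 and 32.8 CPM in Δblr-1, against 40.1, 41.2 and 41.2 CPM in WT (log2 fold change -0.35 ± 0.07 SE, adjusted p = 0.010). An HMG box protein (Id. 321166), of a family of DNA-binding regulators, had 4.09, 3.31 and 3.71 CPM in Δblr-1, against 5.55, 9.32 and 6.15 CPM in WT (log2 fold change -0.97 ± 0.20 SE, adjusted p = 0.0086). The libraries of the strains did not overlap for these genes, which were chosen after their values were seen. Others of the list went the other way, such as an MFS toxin efflux pump (Id. 201457), with 8.18, 11.1 and 8.82 CPM in Δblr-1, against 6.07, 5.80 and 7.29 CPM in WT (log2 fold change 0.61 ± 0.16 SE, adjusted p = 0.030).

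The induced genes called lower were a C2H2 finger protein (Id. 87968) and Id. 25029, with log2 fold changes of -1.28 ± 0.37 and -1.32 ± 0.38 (SE). Each was called in 1 of the 6 fits that left out a library, and neither was called with the 6 dark libraries alone (adjusted p = 0.082 and 0.10). The induced genes called higher were Id. 255118 and Id. 251069, whose counts were not whole in any of the 24 libraries and may hold reads of a near-identical copy.

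**Figure D4:**
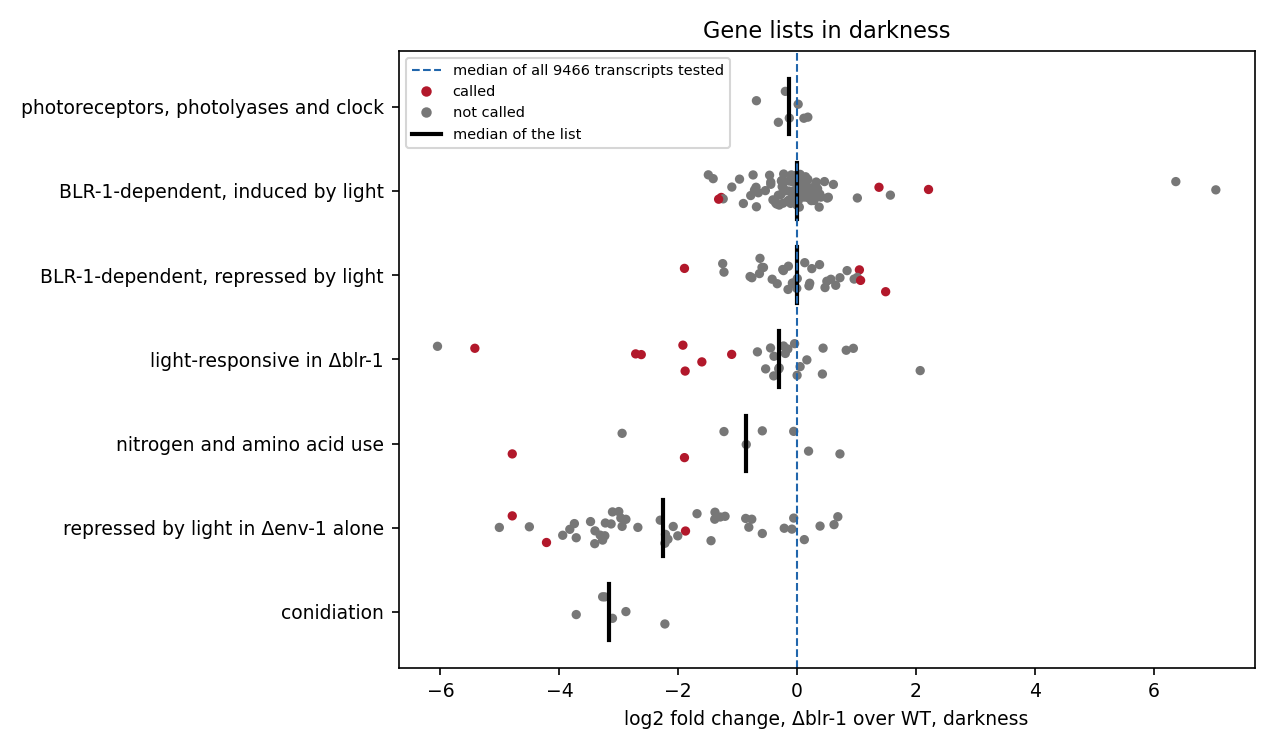
Each point is the log2 fold change of Δblr-1 over WT in darkness for one gene of a list, red where called, with a black bar at the median of the list and a dashed line at the median of all 9466 genes tested. The genes dependent on BLR-1 for their light response have medians of -0.0026 and -0.0051, and the conidiation genes all lie below -2.

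Among the genes repressed by light, a fungal transcriptional regulatory protein (Id. 87055) was the clearest. It had 40.5, 39.9 and 43.8 CPM in Δblr-1, against 10.6, 21.1 and 12.1 CPM in WT (log2 fold change 1.49 ± 0.24 SE, adjusted p = 0.0027). It had 12.8, 14.1 and 16.7 CPM in Δblr-2 and 31.0, 32.1 and 31.6 CPM in Δenv-1 in darkness. A transporter of the major facilitator superfamily (Id. 45374) had 106, 83.5 and 72.7 CPM in Δblr-1, against 32.96, 62.1 and 30.3 CPM in WT (log2 fold change 1.05 ± 0.25 SE, adjusted p = 0.019). Id. 48461 had 5.46, 4.67 and 5.82 CPM in Δblr-1, against 1.73, 2.46 and 3.42 CPM in WT. Without WT replicate 1 the adjusted p of these 2 genes was 0.10 and 0.16.

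The aromatic amino acid aminotransferase Id. 45548 was the repressed gene called lower, at 0.390, 0.583 and 1.06 CPM in Δblr-1, against 1.56, 2.99 and 2.96 CPM in WT (log2 fold change -1.90 ± 0.43 SE, adjusted p = 0.015). With nitrate reductase it made up the 2 called genes of the 9 tested for nitrogen and amino acid use, whose median was -0.86, against 1.45% of all genes called lower. With the 6 dark libraries alone 4 of the list were tested, with a median of -0.20 and none called by edgeR. No gene of the list was called without WT replicate 3, Δblr-1 replicate 1 or Δblr-1 replicate 2. Without WT replicate 2, 4 were called lower, in a fit that called more of all genes lower than the main fit.

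The study lists 27 genes as light-responsive in Δblr-1 itself, and 7 of them were called lower in darkness, against 1.45% of all genes. Without WT replicate 1 this count was 4 and without Δblr-1 replicate 2 it was 3. The 7 genes were the katanin subunit Id. 207541, a microtubule-severing ATPase, the SNF2 family protein Id. 211836, of a family of chromatin remodelers, the ankyrin repeat protein Id. 322621, Id. 288145, Id. 322924, Id. 301968 and Id. 256835. Id. 211836 had 16.95, 22.4 and 21.9 CPM in Δblr-1, against 115, 29.7 and 91.2 CPM in WT (log2 fold change -1.92 ± 0.41 SE, adjusted p = 0.011), and its adjusted p was 0.0705 without WT replicate 1. Id. 256835 had at most 0.195 CPM in Δblr-1, against 6.77, 4.57 and 0 CPM in WT, and in 20 libraries its counts were not whole. It was called in 2 of the 6 fits that left out a dark library. This list was chosen on libraries that include the 3 Δblr-1 dark libraries.

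Oxidases and dehydrogenases showed 1 change by the adjusted p and none by the call. The FAD monooxygenase Id. 36860 had 23.97, 23.1 and 20.5 CPM in Δblr-1, against 8.85, 15.7 and 10.03 CPM in WT (log2 fold change 0.96 ± 0.20 SE, adjusted p = 0.011). It was called without WT replicate 2 (log2 fold change 1.26) and without Δblr-1 replicate 3 (1.02). The gene bld-2 (Id. 301399) had 3333, 3487 and 2824 CPM in Δblr-1, against 1974, 2827 and 2006 CPM in WT (log2 fold change 0.50 ± 0.16 SE, adjusted p = 0.063). The lowest Δblr-1 library was just under the highest WT library.

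The multicopper oxidase Id. 217148 followed the conidiation genes, with 0.974, 0.583 and 2.29 CPM in Δblr-1, against 13.9, 3.69 and 28.0 CPM in WT (log2 fold change -3.75 ± 1.20 SE, adjusted p = 0.067). It was called with the replicate block (adjusted p = 0.0057). Of the other members, alcohol oxidase (Id. 81139) had a log2 fold change of 0.95, alcohol dehydrogenase I (Id. 300064) of -0.30, catalase 1 (Id. 295449) of -0.09, the cyclohexanone monooxygenases Id. 88456 and Id. 265387 of -0.0051 and -1.49, L-ascorbate oxidase (Id. 247069) of -1.29 and the dehydrogenases Id. 152345 and Id. 289607 of -1.45 and -1.25. None of these passed. Id. 289607 was called with the replicate block (adjusted p = 0.036). The ferric-chelate reductase Id. 39861 was too low to be tested, at no more than 0.46 CPM in any dark library of Δblr-1 or WT.

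Genes of DNA repair and replication showed no difference that passed. None of the 13 was called or had an unadjusted p under 0.05, and their median log2 fold change was 0.0172. None of the 6 sulfur and serine genes was called, with 1 unadjusted p under 0.05 and a median of 0.0334. None of the 9 genes of secondary metabolism was called. By the adjusted p alone 2 of them passed, each lower, against 4.6% of all genes. An unadjusted p under 0.05 was found for 4, all lower, against 1176 of all 9466 genes. Of 14 transporters 2 were called higher, and of 14 transcription regulators 1 was called higher and 1 lower, all named above, against 0.433% of all genes called higher and 1.45% called lower. By the adjusted p alone 3 transporters were higher and 0 lower, and 1 regulator was higher and 2 lower. The shares of all genes were 3% and 4.6%.

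Some called genes lay beside one another. Gene order was read from the RefSeq assembly of another strain, P1, in which 167 of the 178 called genes were found. Allowing 1 other gene between called genes of the same direction, 44 called genes fell into 17 runs, 16 of lower genes and 1 of higher genes. The number of runs among equally many other genes was not computed, so whether this is more than usual was not tested. The longest run held 5 adjacent genes, all lower, namely Id. 296441, Id. 322924, Id. 153453, Id. 288145 and Id. 94382. Id. 322924 had 7.79, 7.58 and 7.59 CPM in Δblr-1, against 40.4, 14.1 and 30.1 CPM in WT. The log2 fold changes of the run ranged from -2.62 to -1.03, and Id. 296441 was just under the fold limit with the replicate block (-0.97). In the fits that left out a dark library Id. 153453 was called in 1 of 6 (adjusted p up to 0.20) and Id. 296441 in 2 of 6, and the other 3 genes of the run in all 6. Id. 153453 was also not called over the 12 libraries of Δblr-1 and WT (adjusted p = 0.065).

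Another run, of 4 genes, held the abundant Id. 301725 between Id. 321268 and Id. 227276, with Id. 227281 at its end. Id. 321268 had 16.95, 11.54 and 20.6 CPM in Δblr-1, against 205, 30.8 and 140 CPM in WT. The log2 fold changes ranged from -3.64 to -1.65. In another run of 4, made of Id. 131307, Id. 222602, Id. 319201 and Id. 284614, they ranged from -3.16 to -2.16. There WT replicate 2 was less apart, with Id. 284614 at 5.46, 7.13 and 7.76 CPM in Δblr-1, against 73.2, 33.2 and 78.9 CPM in WT, and Id. 131307 at 4.48, 3.76 and 3.35 CPM in Δblr-1, against 20.6, 14.2 and 16.4 CPM in WT.

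The 3 runs of 3 genes were Id. 218763, Id. 317584 and Id. 283096, then Id. 281372, Id. 214553 and Id. 93972, and then the katanin subunit Id. 207541, Id. 302325 and Id. 229413. Id. 218763 was the most abundant of these, with 31.4, 27.7 and 40.6 CPM in Δblr-1, against 325, 63.7 and 273 CPM in WT (log2 fold change -2.76 ± 0.52 SE, adjusted p = 0.0061). Id. 283096 was called in 2 of the 6 fits that left out a dark library, Id. 281372 in 1, Id. 93972 in 4 and Id. 207541 in 4. The katanin run had log2 fold changes of -2.72 to -2.40, and its members were between 0.843 and 5.07 CPM in Δblr-1, against 1.76 to 39.2 CPM in WT.

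The same differences were looked for in the light libraries, which share no sample with the dark contrast but carry the same replicate numbers. Deviations from the group means were correlated between dark and light libraries of the same number. The correlations were 0.225, 0.541 and 0.378 in WT and 0.125, 0.215 and 0.116 in Δblr-1. The light libraries are therefore not an independent repeat of the dark contrast. All 41 higher genes were also higher in Δblr-1 after light, and 35 of them passed there by the adjusted p, against 11.1% of all genes. Of the 137 lower genes 135 were lower after light and 128 passed, against 12.6% of all genes. Adding the fold limit left 29 and 111, against 1.51% and 3.08%. Median log2 fold changes after light were 1.53 and -1.55. The strain difference changed with light for 2 of the 178 genes, by the interaction term (1.38% of all genes), both called higher in darkness. Among the 137 lower genes none passed edgeR's interaction test and 5 had an unadjusted p under 0.05.

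**Figure D5:**
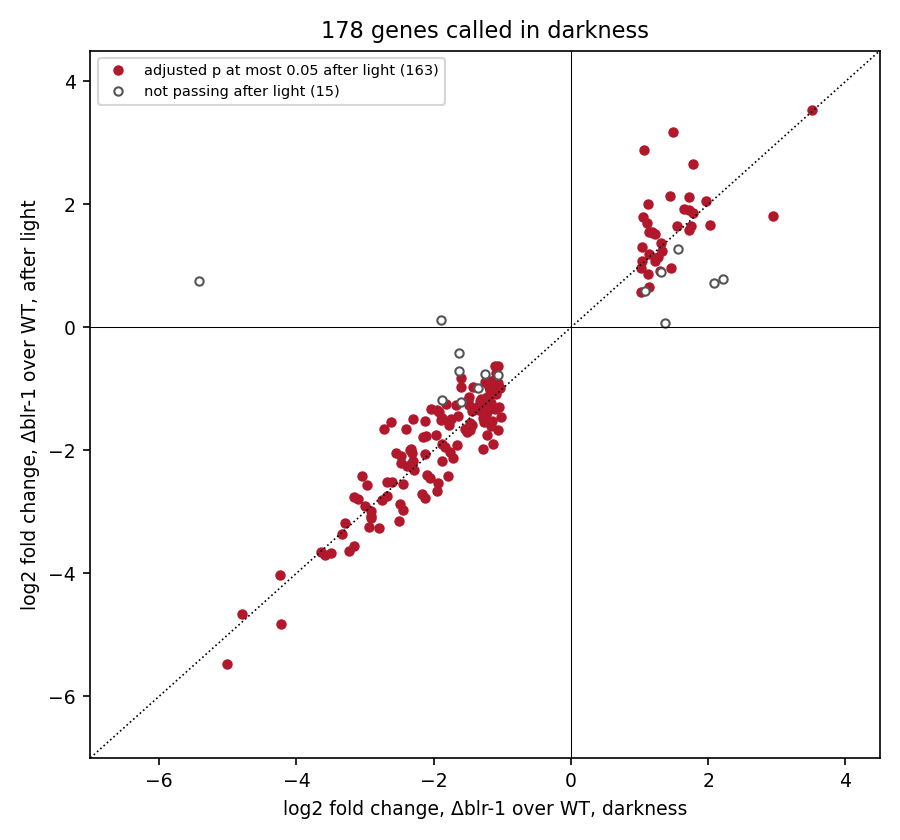
Log2 fold changes of Δblr-1 over WT for the 178 genes called in darkness, with darkness on the x axis and the light libraries on the y axis, the dotted line marking equal values. Red points are the 163 genes that passed by the adjusted p after light, all with the same sign as in darkness, and open points the 15 that did not.

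Set against the other mutants after light, in comparisons added after the dark results were seen, few of the lower genes passed against Δenv-1. Of the 137 lower genes 3 were also lower in Δblr-1 than in Δenv-1 and 1 was higher, by the adjusted p (3.5% and 3.88% of all genes). Of the 41 higher genes 10 were also higher than in Δenv-1, against 3.88% of all genes. Against Δblr-2, 65 of the lower genes were lower and 9 higher (22.3% and 18.5% of all genes), and 19 of the higher genes were higher and 9 lower.

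In darkness the other mutants share the WT libraries with Δblr-1, so their values are given side by side only. The median log2 ratio of the 137 lower genes to the WT mean was -1.50 to -1.30 in Δblr-1, -1.12 to -1.01 in Δblr-2 and -1.40 to -0.77 in Δenv-1. For the 41 higher genes it was 1.16 to 1.39 in Δblr-1, 0.22 to 0.45 in Δblr-2 and 0.90 to 1.03 in Δenv-1. In numbers of called genes, Δblr-1 differed from WT at 178 of 9466, Δblr-2 at 403 of 9605 (4.2%) and Δenv-1 at 96 of 9466 (1.01%). The Δenv-1 count leaves out dark replicate 3, which the Δenv-1 ranges above include, and the Δblr-2 count is from the fit of 23 libraries. The counts therefore differ in power and do not rank the strains.

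A transcript was taken as lost from Δblr-1 alone if it held at most 3 counts in each of its 6 libraries. It also needed more than 3 counts in each of the other 18 libraries, and 0 transcripts met this rule. Depth limits the rule, since 3 counts were 0.147 CPM in Δblr-1 light replicate 2 and 1.96 CPM in Δblr-1 light replicate 1. The rule cannot show whether the transcript of blr-1 is missing. Of 9605 genes, 24 had all 6 Δblr-1 libraries above the other 18 libraries and 17 had them all below. Id. 229937 was one of 4 such genes that were called higher in darkness, with Id. 293420, Id. 32244 and Id. 93963. Id. 293420 had 17.3, 20.4 and 14.8 CPM in Δblr-1 darkness, against 6.42, 8.44 and 8.43 CPM in WT darkness (log2 fold change 1.19 ± 0.16 SE, adjusted p = 0.0011). Id. 32244 had 9.35, 9.53 and 14.1 CPM in Δblr-1, against 4.86, 3.52 and 5.24 CPM in WT.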

How the data were processed

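Poly(A) RNA of mycelium was sequenced by the authors on an Illumina platform with a kit that does not mark strand, so overlapping antisense transcripts cannot be told apart. The deposited values are estimated counts per transcript, which the authors made with kallisto after FastQC, per the submitters' processing notes. Reads were matched to the predicted transcripts of the v2 genome of T. atroviride, per the study's methods. Tool versions were not given in the sources used here. Of the values, 8.35% were not whole, and all were rounded to whole numbers. The table also held 12 columns of per-sample values that matched no label, which were not used.

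Counts were analysed in R 4.3.3 with edgeR 4.0.16 (filterByExpr with a minimum count of 10, TMM scaling, glmQLFit and glmQLFTest). The fit held 17 libraries, namely all those of Δblr-1 and WT and those of Δenv-1 without dark replicate 3. Values of Δblr-2 came from a fit of 23 libraries. p-values were adjusted over all genes tested by the Benjamini-Hochberg method, and calls needed both an adjusted p no higher than 0.05 and a log2 change of 1 or more in size. SE is the standard error of the log2 fold change. The p-values measure the spread between these samples. Depth is given with the samples and limits the precision of genes with few counts. Scripts were tested on simulated data.

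In every same-numbered pair of Δblr-1 and WT dark libraries the deviations from the group means were correlated (0.100, 0.224 and 0.222 across 9466 genes). Replicate numbers were therefore taken to pair the samples in the fits with a replicate block. The main fit held no such block, so its calls and p-values do not use the pairing. Named genes were the members of the photoreceptor, conidiation and oxidase lists, called members of the other lists, the 10 called genes with the largest change and the 5 with the highest level in each direction whose groups did not overlap, and members of runs of 3 or more neighbours. Members and lists were chosen with earlier results of these data known. Product names and light-response lists were taken as Ids and names from the study's supplementary tables. Alternatives were the libraries fitted, a replicate block, leaving out each dark library, the filter, the scaling, rounding, glmTreat, the likelihood ratio test, DESeq2 1.42.0 and voom of limma 3.58.1.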

Additional observations from a re-analysis of the deposited data

Results flagged for a closer look

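For 9 named genes the strain difference after light differed from that in darkness by edgeR's interaction test. From the same libraries the study reported env-1, frq, tmk-3, phr-1 and cry-1 as induced by light through BLR-1, and blu-1 as light-responsive in WT. The interaction term measures much the same property, so its p-values for these genes are not independent evidence. The difference, as the log2 fold change after light minus that in darkness, was -5.48 for env-1 (Id. 150699, adjusted p = 1.3e-09), -7.14 for blu-1 (Id. 300570, adjusted p = 1.3e-08) and -2.45 for frq (Id. 131340, adjusted p = 4.5e-10). It was -1.48 for tmk-3 (Id. 301235, adjusted p = 1.3e-09), -1.40 for phr-1 (Id. 302457, adjusted p = 2.2e-07) and -1.30 for cry-1 (Id. 86846, adjusted p = 1.3e-04). These 6 genes had log2 fold changes between -0.32 and 0.18 in darkness, and all were lower in Δblr-1 than in WT after light.

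The difference was positive for bld-2 (Id. 301399), at 1.57 (adjusted p = 6.4e-04), with 3158, 3201 and 2522 CPM in Δblr-1 after light, against 645, 902 and 576 CPM in WT after light. It was 1.82 for Id. 48461 (adjusted p = 0.040) and 1.69 for the fungal transcriptional regulatory protein Id. 87055 (adjusted p = 0.024), both already higher in Δblr-1 in darkness. Id. 87055 had 27.4, 46.1 and 35.8 CPM in Δblr-1 after light, against 5.02, 5.65 and 2.77 CPM in WT after light.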

How the results depend on the processing

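With the replicate number as a block, which pairs the samples, 235 genes were called over 17 libraries (55 higher, 180 lower), of which 174 were among the 178, and 152 over the 6 dark libraries (33 higher, 119 lower). Under the block the count after light was 137 and the interaction count 2, and the count of Δblr-2 in darkness was 422. Leaving out each dark library gave 89 to 295 calls (24 to 77 higher, 60 to 218 lower), 138 to 141 genes called again after light, 0 to 2 interactions and 333 to 470 calls for Δblr-2. No interaction passed in edgeR without WT replicate 2, Δblr-1 replicate 1 or Δblr-1 replicate 2, with 16, 11 and 10 unadjusted p under 0.05. Without WT replicate 2 in darkness and light, chosen after seeing the data, 374 genes were called (96 higher, 278 lower). voom called 110, of which 73 lower. The adjusted p alone passed 719 (284 higher, 435 lower), and 1412 for Δblr-2. glmTreat called 2 (1 higher, 1 lower), 24 again after light, 0 interactions (4 unadjusted p under 0.05) and 113 for Δblr-2. The interaction count was 2, and 1 over 12 or 23 libraries. The other settings kept these counts within 1.5 times. Signs turned in 4 genes that were not called. Id. 88456 was at 0.0018 with no filter, 0.00070 with upper quartile scaling, 0.022 with voom, and 0.016 and 0.026 with the block over 17 and 6 libraries. Over the fits without 1 library it ranged from -0.148 to 0.222, Id. 295449 from -0.475 to 0.210, blu-1 (Id. 300570) from -0.0365 to 0.426 and phr-1 (Id. 302457) from -0.0154 to 0.0525. Without WT replicate 2 in darkness and light blu-1 was at -0.0438. The causes were not tested.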

Other observations

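Id. 258206, chosen after its values were seen, was the called gene with the highest level. It had 839, 446 and 586 CPM in Δblr-1 darkness, against 6072, 710 and 3661 CPM in WT darkness (log2 fold change -2.49 ± 0.53 SE, adjusted p = 0.011). The groups overlapped, since WT replicate 2 lay below the highest Δblr-1 library, and the adjusted p was 0.059 without WT replicate 1. Its dark level was 2574, 2184 and 1796 CPM in Δblr-2 and 516, 325 and 388 CPM in Δenv-1.

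Id. 139368, chosen in the same way, differed with little spread in either strain. It had 60.0, 62.4 and 58.6 CPM in Δblr-1 darkness, against 142, 126 and 146 CPM in WT darkness (log2 fold change -1.19 ± 0.12 SE, adjusted p = 1.2e-04). Its dark level was 36.8, 42.5 and 37.6 CPM in Δblr-2 and 76.8, 102 and 102 CPM in Δenv-1.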
